A study of Mus musculus with 16 samples.

Results

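The members described here are the probes of a mouse whole-genome expression array that carry no RefSeq accession and still gave signal in embryonic kidney. A probe was taken as a member when its systematic name did not start with a RefSeq prefix and when 4 or more of the 16 arrays carried Agilent's flag for a Cy5 signal well above background. The members were thus chosen by the detection flags of these same arrays, and their detection is a description with no test. Of 56605 probes on the array 20719 had no RefSeq accession, and 10788 of those (52.1%) were members, under 10520 distinct names. For comparison, 23943 of 35886 probes with a RefSeq accession (66.7%) met the same requirement.

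Whole kidneys of C57BL/6 mouse embryos at embryonic day 17.5 were compared in 4 genotypes with 4 arrays each. Controls are labelled wildtype. The Ezh2-KO group had lost both copies of Ezh2 conditionally, from Six2-positive nephron progenitor cells, with wild-type Ezh1. The Ezh1-het group had the same conditional Ezh2 loss and was heterozygous for a germline Ezh1 knockout, and the double knockout had it with homozygous germline Ezh1 loss. All 3 knockout groups therefore share the conditional Ezh2 loss, which reaches only the Six2-positive lineage, whereas Ezh1 was lost in every cell. Each array measured its sample in Cy5 against RNA of control 1 in Cy3, without dye swaps, so control 1 was set against itself. Values are log2(Cy5/Cy3) per array, and differences are between group means given ± the fit's standard error (SE), over 4 arrays per group. According to the series' design text the samples are biological replicates, so the spread between kidneys is what p-values rest on. In whole kidneys, fewer cells of a type and less RNA per cell cannot be told apart.

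Ezh2 and Ezh1 are the alternative catalytic subunits of Polycomb repressive complex 2, which methylates histone H3 at silent developmental genes and has also been studied for its contacts with long non-coding RNA. Nephron progenitors are the self-renewing cells from which the epithelial nephron is built. Probes without a RefSeq accession cover what was known of the mouse transcriptome from other sources. They include Ensembl transcript models, full-length cDNAs of the RIKEN collection (accessions starting with AK), other GenBank mRNAs and expressed sequence tags, consensus sequences of a gene index (names starting with TC), and intervals of a chromosome with no transcript name. Such probes can report non-coding RNA, alternative ends of known genes, or nothing that is transcribed. A separate list of RefSeq gene symbols and synonyms matched the names of 30 of the 20719 probes, 12 of them members. The others are named by their accessions. Interval names are coordinates on mm9, the build given in the array grid, and their position relative to genes was not analysed here.

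Detection differed by kind of name. Ensembl transcripts gave 4244 members of 7284 probes (58.3%), RIKEN cDNAs 2917 of 6036 (48.3%), chromosome intervals 2297 of 4450 (51.6%) and other GenBank accessions 820 of 1936 (42.4%). Names starting with NAP, a prefix the files do not explain, gave 348 of 509 (68.4%). The 3 smallest kinds were probes named only by their own probe name (98 of 381), gene-index consensus sequences (52 members, 48.6%) and other names (12 of 16). Of the members 7779 (72.1%) were above background on all 16 arrays, against 81.9% of the RefSeq probes that passed. Just inside the threshold lay 255 members seen on 4 arrays, with a median mean log2 intensity of 6.38, and just outside lay 362 probes seen on 3 arrays, with a median of 6.36.

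**Figure D1:**
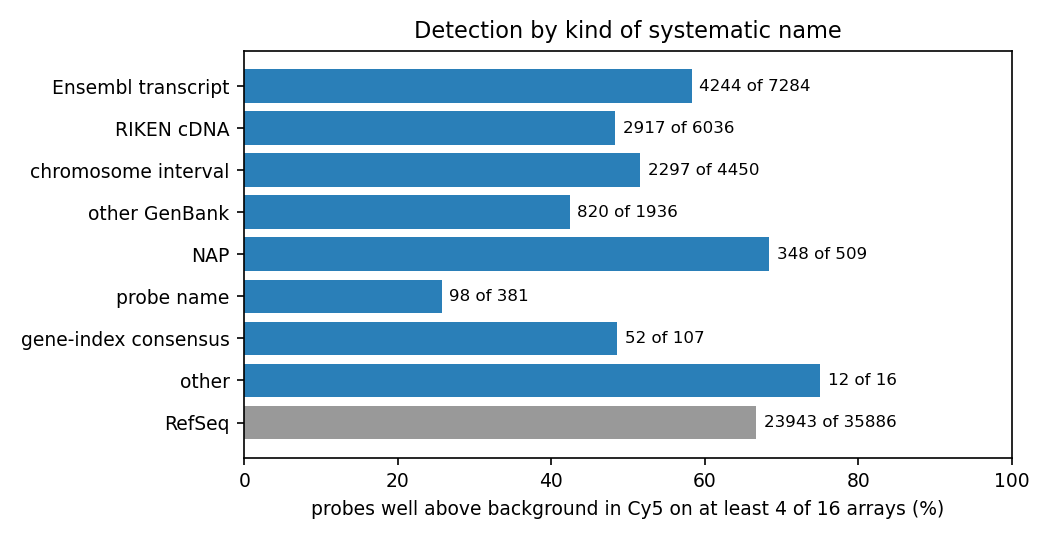
Share of the probes of each kind of systematic name that had Cy5 signal well above background on 4 or more of 16 arrays, in percent of all probes of that kind, with the counts beside each bar. NAP names (68.4%) and RefSeq accessions (66.7%, grey) had shares above those of Ensembl transcripts (58.3%), and probes known only by their probe name had 25.7%.

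Some members were above background on every array of 1 group and on no array of another. Against control, 20 members were above background on all 4 double knockout arrays and on no control array, and 25 showed the reverse. The same counts were 24 and 34 for Ezh1-het, and 30 and 2 for Ezh2-KO. Between double knockout and Ezh2-KO they were the most uneven, with 3 members above background in the double knockout alone and 81 in Ezh2-KO alone of that pair. The same counts were not taken over all probes, so these cannot be read as particular to the members. The share of all probes above background also differed by array. It ran from 58.4% to 63.4% over Ezh2-KO arrays and from 55.1% to 59.2% over double knockout arrays. The lowest was 53.1% (control 2) and the highest 63.4% (Ezh2-KO 4), and the part of this spread in the counts was not tested.

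Only 5 members were seen in 1 group alone, and these were named after their values were seen. The intervals chr1:186560855-186563399 (F strand) and chr4:89088538-89130181 (F strand) were above background on the 4 double knockout arrays and on none of the other 12. The chr1 interval read 0.67, 0.45, 0.48 and 0.27 in the double knockout and between -0.12 and 0.05 in controls, a difference of 0.50 ± 0.09 from control. The chr4 interval read 0.50, 0.39, 0.55 and 0.38, and its difference was 0.56 ± 0.10. Both groups of arrays were apart from the controls, but both intervals entered the analysis through the group in which they were high, so no test is attached to them. The other 3, ENSMUST00000199968, NAP067572-1 and TC1775906, were above background in Ezh2-KO alone, and their Ezh2-KO differences from control were 0.05, 0.10 and 0.47, likewise with no test.

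Members were called when limma's adjusted p, by Benjamini-Hochberg over all 34731 probes tested, was under 0.05. Between double knockout and control 203 members were called, 1.88% of the members, against 3.09% of all probes tested. Of these, 149 were higher (2.42% of all probes tested were higher) and 54 lower (0.674% of all). Between Ezh2-KO and control 188 members were called (1.74%, against 2.63% of all probes), 86 of them higher and 102 lower, where 1.67% of all probes were higher and 0.956% lower. Ezh1-het against control gave 490 members (4.54%, against 6.35% of all probes), 222 higher and 268 lower, with 4.00% and 2.35% of all probes in those directions. These comparisons share the 4 control arrays. Double knockout against Ezh2-KO gave 58 members (0.538%, against 0.674% of all probes), 39 higher and 19 lower, with 0.475% and 0.199% of all probes.

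The members were called less often than all probes tested in each of the comparisons, a difference that was not tested. Among probes above background on all 16 arrays it was there in the comparisons with control: 163 of 7779 members (2.10%) against 2.88% of all such probes in Ezh2-KO, 394 (5.06%) against 6.51% in Ezh1-het, and 147 (1.89%) against 2.89% in the double knockout. It was not there in double knockout against Ezh2-KO, which gave 44 such members (0.566%), against 0.552% of all such probes. Median differences of the members lay near 0, at -0.03 (Ezh2-KO), -0.04 (Ezh1-het) and -0.02 (double knockout), beside 0.01, 0.01 and -0.0028 over all probes tested. The split between higher and lower depended on the centring and on single arrays. With median centring in place of loess, which moved the median of all probes by over 0.1 in each comparison with control (to 0.22, 0.24 and 0.25), 84.7% of called members were higher in Ezh2-KO in place of 45.7%, 78.4% in place of 45.3% in Ezh1-het, 92.2% in place of 73.4% in the double knockout and 83.5% in place of 67.2% in double knockout against Ezh2-KO. With the software's own ratio the share in Ezh2-KO was 35.7%.

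By kind, the double knockout differed from control at 79 Ensembl transcripts (56 higher, 23 lower; 1.86% of those measured), 65 RIKEN cDNAs (47 and 18; 2.23%), 32 chromosome intervals (27 and 5; 1.39%) and 19 other GenBank accessions (14 and 5; 2.32%). The remaining calls were 3 NAP names, 3 gene-index sequences, 1 probe name and 1 other name. Ezh1-het gave 218 Ensembl transcripts (5.14%), 127 RIKEN cDNAs (4.35%), 78 intervals, 45 other GenBank accessions (5.49%) and 17 NAP names (4.89%). Ezh2-KO gave 88 Ensembl transcripts (2.07%), 44 RIKEN cDNAs (1.51%), 29 intervals (1.26%) and 19 other GenBank accessions (2.32%). In double knockout against Ezh2-KO the 7 called intervals (0.305%) were higher. The 3 NAP names (0.862%) and 2 gene-index sequences (3.85%) called were lower. Over all probes tested 0.674% were called, and 70.5% of those calls were higher. Among the lower calls, NAP072242-1 and TC1636493 had nearly the same values on every array. These calls are too few to be read as a pattern by kind of name. Intervals had a lower share called than Ensembl transcripts in each of the 4 comparisons, which was not tested.

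**Figure D2:**
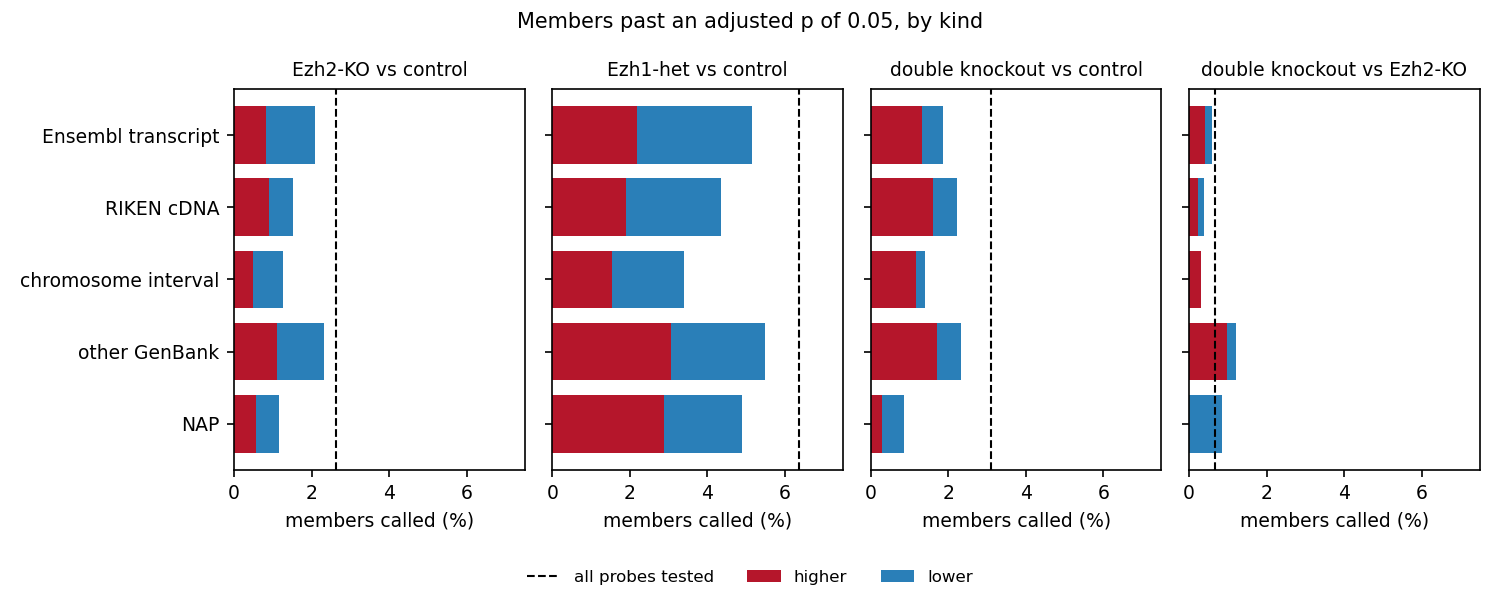
Share of measured members past an adjusted p of 0.05 for the 5 most numerous kinds of name, in percent, with higher calls in red and lower calls in blue. The dashed line is the share over all probes tested (2.63%, 6.35%, 3.09% and 0.674% from left to right), and in each comparison with control the bars end to its left.

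The counts also hung on single arrays. Control 2 had the weakest signal (75th percentile of Cy5 signal over background of 5.21, against 7.96 to 16.6 on the other arrays) and stood farthest out on the first principal component of the members, with a score of 36.0. Without it the Ezh2-KO count fell from 188 to 72 and the Ezh1-het count from 490 to 256, and the double knockout count was 190. Without controls 2 and 3 the counts were 33, 65 and 114, of which 27, 48 and 75 were members called with all arrays. Other single arrays that moved a count by more than 1.5 times were control 4, Ezh2-KO 2 and Ezh2-KO 4 for Ezh2-KO against control (102, 72 and 74), Ezh1-het 2, 3 and 4 for Ezh1-het against control (147, 306 and 115), and double knockout 3 for double knockout against control (102). Single arrays also moved the counts in 1 direction. Without control 3 the lower calls rose from 102 to 179 in Ezh2-KO and from 54 to 110 in the double knockout, where 54.2% of calls were then higher in place of 73.4%, and the higher calls in Ezh1-het fell from 222 to 140. Lower calls were 155 in Ezh2-KO without control 1, 165 in Ezh1-het without Ezh1-het 1 (268 with all arrays) and 32 in the double knockout without double knockout 4. In double knockout against Ezh2-KO they were 10 without double knockout 4, in place of 19, and the count in both directions fell to 27, 21, 34, 27 and 26 without Ezh2-KO 1, Ezh2-KO 2, and double knockout 1, 2 and 3. Each slide held 2 arrays of every genotype, replicates 1 and 2 on the first and 3 and 4 on the second. With slide as a block the counts were 254, 593, 230 and 58 in the order Ezh2-KO, Ezh1-het, double knockout, and double knockout against Ezh2-KO. Within slide 1 alone they were 24, 27, 44 and 18, and within slide 2 alone 2, 9, 24 and 2, with 2 arrays per group.

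Ezh1 and 1 probe of Ezh2 followed the genotype labels in every array. Ezh1 read between -4.62 and -4.44 in the double knockout, between -1.38 and -0.88 in Ezh1-het, and between -0.31 and 0.37 in the other 8 arrays. That Ezh2 probe (A_51_P248067) read between -3.74 and -2.69 in the 12 knockout arrays and between -0.51 and 0.44 in controls. The other Ezh2 probes differed by less. In each of them some knockout arrays overlapped the controls, and none was called in Ezh2-KO against control. All 8 kidney markers (Six2, Wt1, Pax2, Pax8, Nphs1, Slc34a1, Umod and Cdh16) passed the detection filter. Pax8 and Nphs1 were called higher in Ezh1-het and Pax8 in the double knockout. The mean log2 ratio of the 8 ran from -0.78 to 0.10 over control arrays, -0.69 to 0.19 in Ezh2-KO, -0.05 to 0.17 in Ezh1-het and -0.81 to -0.44 in the double knockout, and its part in the members' differences was not tested. Of markers of other cells, 4 of 5 erythroid genes were measured, with a median difference of -0.98 in the double knockout and none called. Of the 5 neutrophil genes 4 were measured, with a median of 1.09 in Ezh2-KO and 2 called, and of the 5 liver genes 4 were measured, with a median of 0.70 in Ezh1-het and 1 called.

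The largest increase in the double knockout among the members named was at the RIKEN cDNA AK156439. Its probe read -0.04, 0.50, 0.26 and 0.27 in controls and 0.40, 0.92, 0.05 and 1.52 in Ezh2-KO. It read 2.07, 1.86, 2.06 and 2.16 in Ezh1-het and 2.76, 3.08, 2.69 and 2.61 in the double knockout. The Ezh2-KO arrays overlapped the controls, all Ezh1-het arrays lay above both, and all double knockout arrays lay above Ezh1-het. The difference from control was 0.48 ± 0.22 in Ezh2-KO (limma, adjusted p = 0.23), 1.79 ± 0.22 in Ezh1-het (adjusted p = 0.00029) and 2.54 ± 0.22 in the double knockout (adjusted p = 3.49e-06). Double knockout exceeded Ezh2-KO by 2.06 ± 0.22 (limma, adjusted p = 8.38e-05), and within the slides by 2.26 and 1.86.

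Several further members changed with Ezh1 and did not pass the threshold in Ezh2-KO alone. The GenBank accession U19596 read -0.13, -0.44, -0.05 and -0.17 in controls, -0.37, -0.38, -0.10 and -0.12 in Ezh2-KO, 0.25, 0.23, 0.31 and 0.27 in Ezh1-het, and 0.91, 0.77, 0.85 and 0.84 in the double knockout. Its control and Ezh2-KO arrays overlapped, and the Ezh1-het and double knockout arrays formed separate steps above them. Double knockout exceeded Ezh2-KO by 1.08 ± 0.09 (limma, adjusted p = 4.08e-06), and Ezh2-KO differed from control by -0.05 ± 0.09 (adjusted p = 0.798). AK034163 followed the same order, at 1.21, 1.62, 1.03 and 1.40 in the double knockout and 0.27, 0.14, 0.02 and 0.22 in Ezh2-KO, a difference of 1.15 ± 0.14 (limma, adjusted p = 0.000281). The expressed sequence tag BB189136 read 1.11, 0.85, 1.23 and 0.72 in the double knockout and -0.32 to 0.18 in Ezh2-KO, a difference of 0.95 ± 0.13 (limma, adjusted p = 0.00134). In both, the double knockout arrays lay above all other arrays.

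CB196702, another GenBank accession, was above background on no control array, on 3 Ezh2-KO arrays and on all arrays of the other groups. It read 0.01, -0.14, -0.05 and 0.15 in controls, 0.17, 0.21, 0.64 and 0.36 in Ezh2-KO, 0.42, 0.34, 0.64 and 0.64 in Ezh1-het, and 1.51, 1.70, 1.55 and 1.36 in the double knockout. The double knockout arrays stood clear of all others. CB196702 passed the detection filter only through the groups where it was higher, so no test against control is attached to it. Its level in the double knockout exceeded that of controls at least 2.91-fold, where the dim side is only a bound set by background (difference 1.54 ± 0.11). Such bounds compare Cy5 levels and are open to dye bias, since no dyes were swapped.

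Among the members named, the largest decrease in the double knockout called in every fit that left out 1 array was at the RIKEN cDNA AK036131. It read 0.04, 0.21, 0.11 and 0.31 in controls, 0.16, 0.11, 0.45 and -0.30 in Ezh2-KO, -0.39, -0.38, -0.52 and -0.44 in Ezh1-het, and -1.51, -1.01, -1.59 and -1.34 in the double knockout. The double knockout arrays lay below all others, and Ezh1-het lay between them and the remaining arrays. The difference from control was -1.53 ± 0.14 in the double knockout (limma, adjusted p = 4.37e-06) and -0.60 ± 0.14 in Ezh1-het (adjusted p = 0.0192). The double knockout lay 1.47 ± 0.14 below Ezh2-KO, which differed from control by -0.06 ± 0.14 (limma, adjusted p = 0.826).

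The Ensembl transcript ENSMUST00000100417 was above background on all 12 arrays outside the double knockout and on none within it. It read -0.13, 0.17, 0.36 and 0.11 in controls, 0.23, 0.07, 0.07 and -0.01 in Ezh2-KO, -0.35, -0.38, -0.29 and -0.16 in Ezh1-het, and -0.99, -0.57, -1.03 and -0.76 in the double knockout. The double knockout arrays did not overlap any other group, and the level there was at least 1.95-fold lower than in controls. This probe passed the detection filter only through the groups where it was higher, so no test of that fall is attached to it. A second probe of the same transcript was lower by 0.42 ± 0.07 in the double knockout than in controls. That probe was above background on 10 arrays and may have passed the filter in the same way, so no test is attached to it either. TC1676895 also fell in the double knockout, by 0.58 ± 0.10 from control and by 0.65 ± 0.10 from Ezh2-KO, while the Ezh2-KO difference was 0.08 ± 0.10.

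A further group was higher in all 3 knockout groups and rose further in the double knockout. The Ensembl transcript ENSMUST00000124148 was above background on no control array and on all 12 knockout arrays. It read 0.12, 0.10, 0.00 and -0.10 in controls, 1.56, 1.38, 1.49 and 1.42 in Ezh2-KO, 1.44, 1.58, 1.44 and 1.69 in Ezh1-het, and 1.74, 2.28, 1.87 and 1.90 in the double knockout. No knockout array overlapped a control. The level was at least 2.69-fold higher in Ezh2-KO, at least 2.84-fold in Ezh1-het and at least 3.77-fold in the double knockout. This member passed the detection filter only through the knockout groups, where it was high, so no test against control is attached to it. Double knockout exceeded Ezh2-KO by 0.48 ± 0.10 (limma, adjusted p = 0.0406). All 3 differences from control kept their direction within the slides and with any 1 array left out.

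ENSMUST00000140876, above background on only 2 control arrays and on all knockout arrays, showed the same order of groups. It read -0.33, -0.30, 0.17 and -0.27 in controls, 0.90, 0.64, 0.68 and 0.60 in Ezh2-KO, 0.70, 0.87, 0.67 and 0.70 in Ezh1-het, and 1.45, 1.09, 1.50 and 1.29 in the double knockout. Ezh2-KO and Ezh1-het overlapped each other, and both lay between the controls and the double knockout. The differences from control were 0.89, 0.92 and 1.51 (each ± 0.12), and double knockout exceeded Ezh2-KO by 0.63 ± 0.12 (limma, adjusted p = 0.0157).

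The interval chr1:63319842-63349796 (F strand, 29955 bases) rose in all 3 knockout groups. It read 0.21, 0.07, 0.14 and 0.16 in controls, 0.84, 0.95, 0.85 and 1.01 in Ezh2-KO, 1.08, 0.77, 1.11 and 0.98 in Ezh1-het, and 1.49, 1.20, 1.22 and 0.97 in the double knockout. The knockout groups overlapped each other and none of their arrays overlapped a control. The differences from control were 0.77, 0.84 and 1.08 (each ± 0.10), and the step from Ezh2-KO to double knockout, 0.31 ± 0.10, did not pass the threshold (limma, adjusted p = 0.205).

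**Figure D3:**
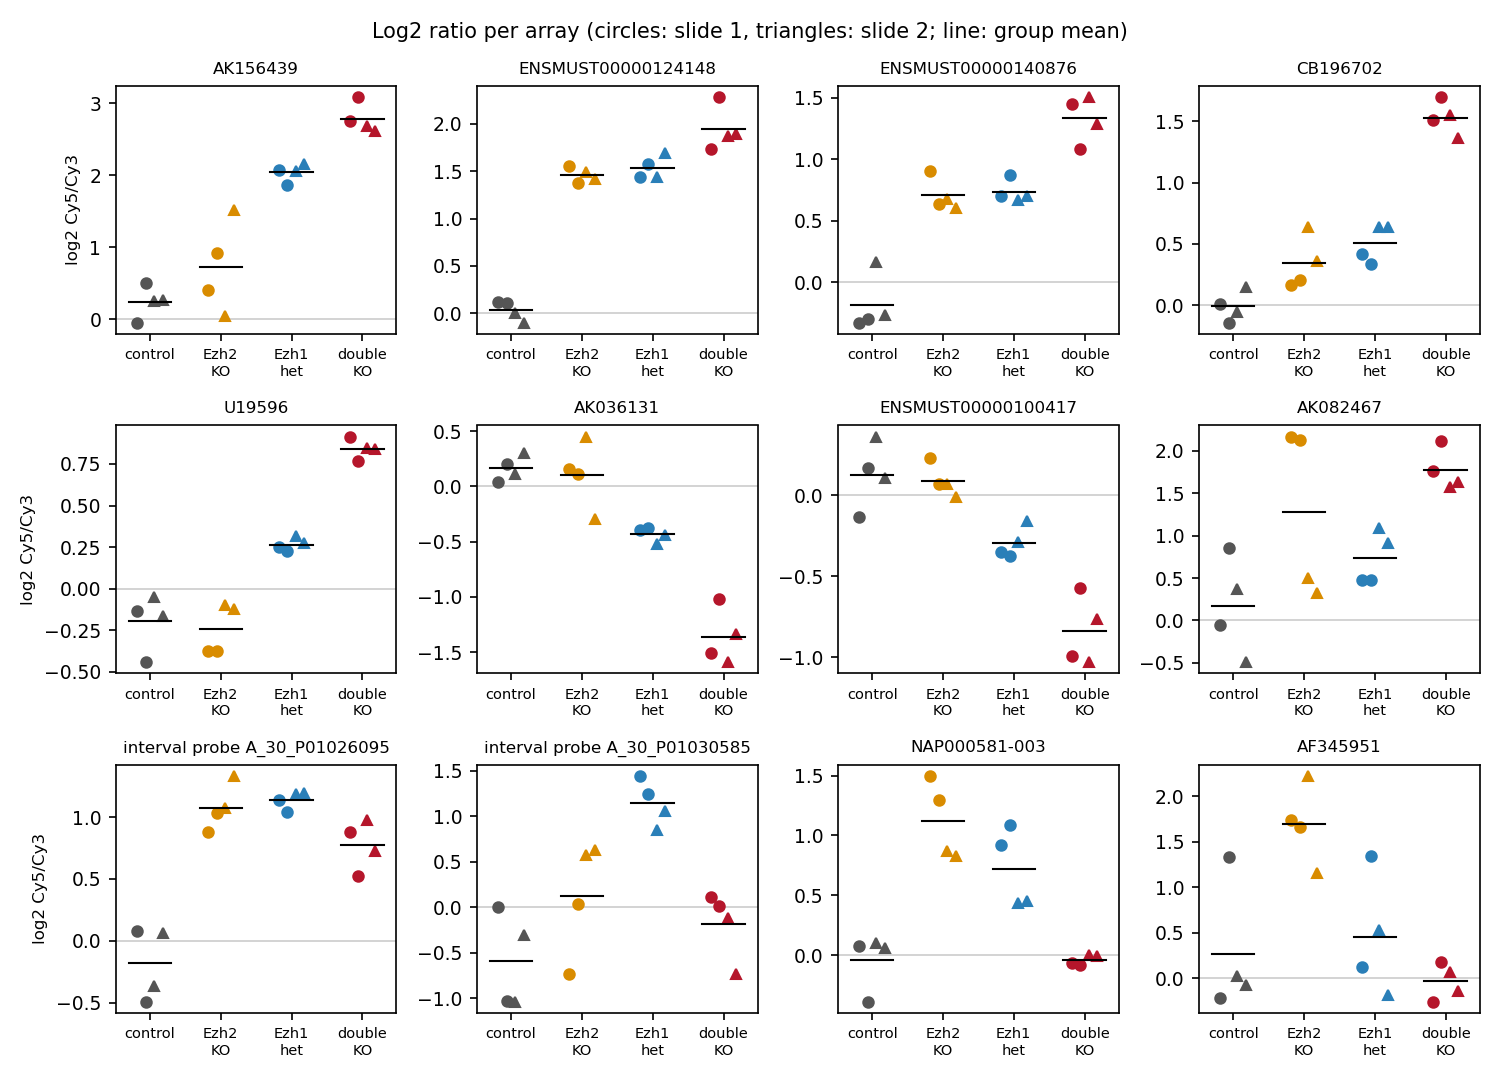
Log2(Cy5/Cy3) on each of the 16 arrays for 12 members, by genotype, with arrays of slide 1 as circles, those of slide 2 as triangles and the group mean as a line; each panel has its own vertical scale. AK156439, U19596 and CB196702 are highest in the double knockout and AK036131 and ENSMUST00000100417 lowest there, AK082467 splits by slide in Ezh2-KO, and NAP000581-003 and AF345951 are high in Ezh2-KO and near 0 in the double knockout.

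Other members were higher by a larger amount in Ezh2-KO and Ezh1-het than in the double knockout. The interval chr7:128341797-128414692 (R strand, 72896 bases) read 0.08, -0.49, -0.37 and 0.07 in controls, 0.88, 1.03, 1.07 and 1.33 in Ezh2-KO, 1.14, 1.04, 1.19 and 1.19 in Ezh1-het, and 0.88, 0.53, 0.98 and 0.72 in the double knockout. All knockout arrays lay above the controls, with differences of 1.25, 1.32 and 0.95 (each ± 0.13; limma, adjusted p = 0.000161, 4.37e-05 and 0.00046). The double knockout lay 0.30 ± 0.13 below Ezh2-KO, which did not pass the threshold (limma, adjusted p = 0.38). The RIKEN cDNA AK142386 differed from control by 1.00, 1.16 and 0.73 (each ± 0.12) in the same order. ENSMUST00000090180 differed by 0.99, 1.20 and 0.57 (each ± 0.12) and ENSMUST00000173809 by 0.96, 1.07 and 0.62 (each ± 0.15). For these, too, the difference between double knockout and Ezh2-KO did not pass the threshold (limma, adjusted p between 0.154 and 0.389).

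At NAP000581-003 the double knockout did differ from Ezh2-KO. It read 0.08, -0.39, 0.10 and 0.06 in controls, 1.49, 1.29, 0.87 and 0.83 in Ezh2-KO, 0.92, 1.08, 0.44 and 0.45 in Ezh1-het, and -0.06, -0.08, 0.00 and -0.01 in the double knockout. All Ezh2-KO and Ezh1-het arrays lay above all arrays of the other 2 groups, and within both of those groups slide 1 was higher than slide 2. The difference from control was 1.16 ± 0.17 in Ezh2-KO (1.55 within slide 1 and 0.77 within slide 2), and the double knockout lay 1.16 ± 0.17 below Ezh2-KO (limma, adjusted p = 0.00156).

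AF345951 was high in Ezh2-KO. It read -0.21, 1.34, 0.03 and -0.07 in controls, 1.74, 1.67, 2.22 and 1.16 in Ezh2-KO, 0.12, 1.34, 0.54 and -0.19 in Ezh1-het, and -0.26, 0.18, 0.07 and -0.14 in the double knockout. Its Ezh2-KO arrays overlapped those of control 2 and Ezh1-het 2 and lay clear of the double knockout, which was 1.73 ± 0.33 lower (limma, adjusted p = 0.0212). That call was lost without any 1 of Ezh2-KO 1, 2 or 3 or double knockout 1, 3 or 4, at differences of -1.76 to -1.56. The mean log2 ratio of the 5 neutrophil markers, dim Ngp included, ran from 0.13 to 1.74 over the Ezh2-KO arrays. It ran from -0.34 to 0.13 over the double knockout arrays, and its part in this result was not tested. Of the measured ones S100a8 and S100a9 were called higher in Ezh2-KO than in control. Camp (0.41) and Elane (-0.25, the opposite sign) were not called, and Ngp was above background on 1 array only. Also lower in double knockout than in Ezh2-KO were NAP072242-1 and TC1636493, by 0.94 ± 0.20 and 0.94 ± 0.19. The values of those 2 probes differed by no more than 0.07 on any array, so they may share a transcript and are not separate evidence. Both calls were lost when Ezh2-KO 1, 2 or 3 or double knockout 2, 3 or 4 was left out. ENSMUST00000110971 was higher in double knockout than in Ezh2-KO by 1.01 ± 0.18 (limma, adjusted p = 0.0123), from -0.80, -0.85, -0.94 and -0.59 in Ezh2-KO to 0.03, 0.59, 0.10 and 0.15, a call that was lost without double knockout 2.

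A further pair of large increases was called in Ezh1-het against control. The interval chr1:160888257-160910594 (R strand, 22338 bases) read 0.01, -1.03, -1.04 and -0.30 in controls, -0.73, 0.03, 0.58 and 0.63 in Ezh2-KO, 1.44, 1.25, 0.85 and 1.06 in Ezh1-het, and 0.11, 0.02, -0.12 and -0.73 in the double knockout. This probe was above background on only 2 control and 3 double knockout arrays, so its control level is dim. The Ezh1-het arrays lay above all others, 1.74 ± 0.29 over control (limma, adjusted p = 0.0029). This call was lost without controls 2 and 3, at 1.30. ENSMUST00000019386 read 1.00, 0.52, 0.65 and 0.78 in Ezh1-het and -0.12, -0.42, -1.67 and -0.03 in controls, a difference of 1.30 ± 0.33 (limma, adjusted p = 0.0325). Its differences in Ezh2-KO (0.71 ± 0.33) and the double knockout (0.99 ± 0.33) did not pass the threshold, and arrays of both groups lay within the range of Ezh1-het. Control 3 lay far below the others here, and without it the difference was 0.93 and no longer called. It also lost its call without control 2 or any 1 Ezh1-het array, at 1.21 to 1.37.

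AK082467, AK083030 and TC1605611 rose in the double knockout and split by slide in Ezh2-KO. AK082467 read -0.05, 0.85, 0.37 and -0.49 in controls, 2.17, 2.13, 0.51 and 0.32 in Ezh2-KO, 0.48, 0.47, 1.09 and 0.91 in Ezh1-het, and 1.76, 2.11, 1.57 and 1.63 in the double knockout. Ezh2-KO 1 and 2, both on slide 1, stood at the double knockout's level and Ezh2-KO 3 and 4 within the range of the controls. The double knockout exceeded control by 1.60 ± 0.37 (limma, adjusted p = 0.0243), and Ezh2-KO differed from control by 1.11 ± 0.37 (adjusted p = 0.106). A second probe of AK082467 showed the same arrays high, at 1.30, 1.36, 0.27 and 0.47 in Ezh2-KO, with a double knockout difference of 1.04 ± 0.21 (limma, adjusted p = 0.00956). AK083030 lay within 0.22 of AK082467 on every array, so the pair may read the same RNA. TC1605611 read 1.84, 1.83, -0.18 and -0.04 in Ezh2-KO, and its double knockout difference was 1.60 ± 0.40 (limma, adjusted p = 0.0364). The calls of the first probe of AK082467 and of AK083030 were lost without any 1 of control 1 or 4 or double knockout 1, 2 or 3 (differences of 1.38 to 1.67). That of TC1605611 was lost without control 1, 2 or 4 or double knockout 1, 3 or 4 (1.40 to 1.67).

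Some decreases were called in all 3 knockout groups. AK084291 read 0.05, 0.76, 0.33 and 0.08 in controls, -0.53, -0.50, -0.61 and -0.82 in Ezh2-KO, -0.77, -0.59, -0.79 and -0.81 in Ezh1-het, and -0.38, -0.13, -0.60 and -0.22 in the double knockout. All knockout arrays lay below the controls, by 0.92, 1.04 and 0.64 on average (each ± 0.14; limma, adjusted p = 0.00257, 0.000499 and 0.0161). AK170240 read 0.22, -0.07, 0.87 and 0.19 in controls and between -0.70 and -0.34 on every knockout array, and fell by 0.87, 0.78 and 0.93 (each ± 0.14). AK170240 was called in every fit of Ezh2-KO or double knockout against control that left out 1 array, and its fall from control was smaller on slide 1 than on slide 2 in the double knockout (-0.67 and -1.19). DV650784 fell by 0.72, 0.81 and 0.73 (each ± 0.14), and the interval chr10:81816994-81863610 (F strand) by 0.55, 0.55 and 0.58 (each ± 0.13). The double knockout call of the chr10 interval was lost without control 4, double knockout 3 or double knockout 4, at -0.53 to -0.49.

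In several decreases control 2 stood above the other controls. ENSMUST00000129315 read 0.22, 2.36, -0.65 and -0.33 in controls and -1.65, -1.43, -0.95 and -1.31 in Ezh1-het. The arrays did not overlap, and the difference of -1.74 ± 0.44 (limma, adjusted p = 0.0296) was -2.83 within slide 1 and -0.64 within slide 2. The call was lost without any 1 of Ezh1-het 1, 2 or 4, at -1.74 to -1.63. The interval chr19:5798135-5800557 (R strand, 2423 bases) read 0.05, 1.09, 0.02 and 0.12 in controls and -0.42, -0.41, -0.79 and -1.18 in Ezh2-KO, a difference of -1.02 ± 0.25 (limma, adjusted p = 0.0404). Without control 2 it was -0.76 and not called, and it was also lost without control 4 (-1.09) or Ezh2-KO 2 (-1.12), 3 (-0.99) or 4 (-0.86). BC029222 read 0.36, 1.28, 0.19 and 0.50 in controls and fell by 0.93, 0.78 and 0.81 (each ± 0.20). Its double knockout call was lost without control 2 (-0.58), control 4 (-0.84), or double knockout 3 or 4 (-0.79 and -0.71), and its Ezh2-KO call without Ezh2-KO 4 (-0.84). In Ezh2-KO, AK164389 (-0.83 ± 0.18) lost its call without control 2 or 4 or Ezh2-KO 2 or 4, at -0.81 to -0.74, and ENSMUST00000121798 (-0.86 ± 0.18) without control 2 or Ezh2-KO 4, at -0.74 and -0.67.

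Further large decreases were seen in Ezh1-het and the double knockout. ENSMUST00000131465 fell by 1.28 ± 0.20 in Ezh1-het (limma, adjusted p = 0.00169), from 0.30, 0.82, 0.90 and 0.20 in controls to -0.95, -0.96, -0.29 and -0.69. AK037370 differed from control by -1.36 ± 0.24 in Ezh1-het and by -1.18 ± 0.24 in the double knockout (limma, adjusted p = 0.0042 and 0.01), and its Ezh2-KO mean rests on 3 arrays because the spot of Ezh2-KO 3 was outlier-flagged and left out. Its double knockout call was lost with median centring (-0.64) and both calls were lost without controls 2 and 3 (-0.85 in the double knockout and -1.04 in Ezh1-het). ENSMUST00000145323 (-0.92 ± 0.21, limma, adjusted p = 0.0216) lost its double knockout call without double knockout 1 or 3. ENSMUST00000078756 (-0.88 ± 0.22, adjusted p = 0.036) lost it in every fit without 1 array except those leaving out control 2 or double knockout 1. ENSMUST00000159090 fell by 1.17 ± 0.26 in Ezh1-het (limma, adjusted p = 0.0157), a call lost without Ezh1-het 2 or 4. Values of the lost calls lay between -1.12 and -0.75.

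NAP113319-1 had the largest difference of any member named and among the least certain. It was above background on 3 control and 3 Ezh2-KO arrays and on none of the other 8. It read -0.07, 2.69, -2.42 and -1.62 in controls, -2.96, -3.42, -2.71 and -2.92 in Ezh2-KO, -4.88, -4.71, -2.73 and -2.76 in Ezh1-het, and -4.06, -4.10, -3.98 and -2.28 in the double knockout. Controls spanned a wider range than the difference from any knockout group, and the double knockout overlapped them. The double knockout differed from control by -3.25 ± 0.82 and Ezh1-het by -3.42 ± 0.82, at least 7.70-fold lower. The Ezh1-het difference was -6.11 within slide 1 and -0.73 within slide 2. This probe passed the detection filter only through control, where it was highest, and Ezh2-KO. The Ezh2-KO mean of -3.00 was far below that of controls (-0.36), although the probe was detected there. No test is attached to it.

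Members of the least numerous kinds were called in the double knockout, too. NAP097170-001 read -0.37, -0.33, -0.35 and -0.34 in the double knockout and between -0.00 and 0.09 in controls, a difference of -0.38 ± 0.08 (limma, adjusted p = 0.00949); with median centring it was 0.32, with the opposite sign. NAP065258-1 (0.31 ± 0.08), TC1681647 (0.32 ± 0.08), NP883496 (0.46 ± 0.12), the probe named only A_55_P2181181 (1.26 ± 0.31) and the interval chr4:145539725-145596000 (F strand, -0.45 ± 0.11) were called in the double knockout with adjusted p between 0.0337 and 0.0459 (limma). Each lost its call in 5 or more of the 8 fits that left out 1 control or double knockout array. A_55_P2181181 and NP883496 kept it only without control 2.

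Gene symbols let a few members be set beside RefSeq probes. Of the 12 members with a symbol, 8 had a RefSeq probe that passed the filter, and the only one called was AB023957, a probe of Apcdd1, which encodes a membrane inhibitor of Wnt signalling. It read 0.14, -0.19, 0.26 and 0.12 in controls, 0.80, 0.61, 0.56 and 0.59 in Ezh2-KO, 0.44, 0.63, 0.55 and 0.75 in Ezh1-het, and 1.03, 0.75, 1.27 and 0.85 in the double knockout. All knockout arrays lay above the controls, by 0.56, 0.51 and 0.89 on average (each ± 0.12; limma, adjusted p = 0.02, 0.0192 and 0.000233). The RefSeq probe of Apcdd1 differed by 0.42, 0.47 and 0.62. A probe named H19, the imprinted non-coding RNA of fetal tissue, differed by 0.07 ± 0.11 in the double knockout and its RefSeq probe by -0.17 ± 0.13, neither past the threshold (limma, adjusted p = 0.825 and 0.589). At Kcng1, which encodes a potassium channel subunit, the probe of AW536275 differed by -0.15 ± 0.10 and the RefSeq probe by 0.05 ± 0.09, again neither past the threshold. H19 and Kcng1 are described outside the rule for named members. The RefSeq probes set beside members are the brightest of each gene. At Cep164 the member differed by 0.12 ± 0.08 and the brightest RefSeq probe by 0.07, but a dimmer RefSeq probe by -0.72 ± 0.10 (limma, adjusted p = 0.000432).

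Interval names carry a letter F or R, read here as the strand, and this allowed opposite strands of 1 interval to be compared. The 4450 interval probes lie over 3229 intervals. The 2155 measured interval names, with each strand counted separately, had a median length of 10926 bases. Both strands were on the array for 832 intervals, and both were measured for 301, with 1 of them measured for 361. Across those 301 pairs the double knockout differences of F and R had a Pearson correlation of -0.01 and a Spearman correlation of 0.03, as a description over pairs that share arrays. In no pair were both strands called in any comparison, while 1 strand was called in 8 pairs for Ezh2-KO, 17 for Ezh1-het, 9 for the double knockout and 2 for double knockout against Ezh2-KO. Over all measured interval probes the shares called were 1.26%, 3.40%, 1.39% and 0.305% in that order. With so few calls, the lack of pairs called on both strands cannot be read as a difference between strands.

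Described next are the 3 pairs with the largest difference between strands where a strand was called in the double knockout. They were picked for that difference. At chr3:87757295-87774970 (17676 bases) the F probe read 0.00, -0.39, 0.43 and -0.05 in controls and 0.81, 0.94, 0.92 and 1.20 in the double knockout, a difference of 0.97 ± 0.14 (limma, adjusted p = 0.000651). The R probe of that interval differed by 0.09 ± 0.09 (adjusted p = 0.716), and another R probe, above background on 8 arrays, by 0.14 ± 0.10 (limma, adjusted p = 0.524). The F strand alone thus passed the test, without a test of the difference between strands. At chr9:118291593-118324230 (32638 bases) the F probe differed by 0.75 ± 0.14 (limma, adjusted p = 0.00639) and the R probe by -0.01 ± 0.08. At chr3:19179899-19216399 (36501 bases) the F probe read between -0.29 and -0.09 in controls and between 0.26 and 0.64 in the double knockout, a difference of 0.60 ± 0.09 (limma, adjusted p = 0.00104). Its R probe read 0.03, 0.17, 1.38 and 0.08 in controls and differed by -0.32 ± 0.21, a value set by control 3, without which it was 0.00.

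**Figure D4:**
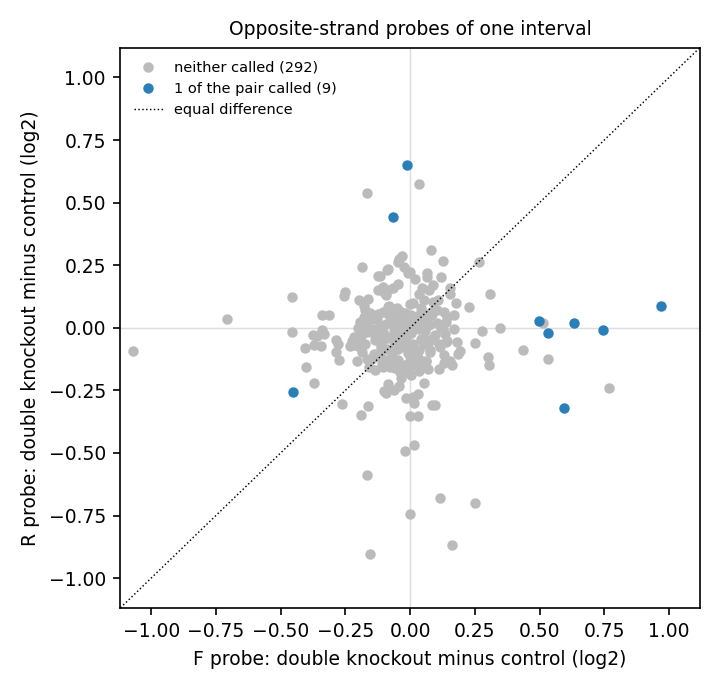
Double knockout minus control (log2) for the F probe (horizontal) and the R probe (vertical) of the 301 intervals with both strands measured; grey points have neither strand called and blue points 1 strand. Most of the 9 blue points lie close to an axis, and no interval had both strands called.

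Probes that share a name were compared in the same way. Among members 255 names had more than 1 probe, which gave 281 pairs. Their double knockout differences had a Pearson correlation of 0.47 and a Spearman correlation of 0.37 across pairs, with a median absolute difference of 0.11. In 3 pairs both probes were called, each in 1 direction: AK082467, ENSMUST00000100417 and the interval chr15:61984389-62102500 (F strand, 0.53 and 0.41). The pair of ENSMUST00000100417 is counted here as a description only, given the limit on its detection stated above. In 6 pairs 1 probe was called. These 9 names are given because they are few, not by the rule for named members. At ENSMUST00000145113 the brighter probe differed by -0.31 (limma, adjusted p = 0.285) and the other by -1.02 (adjusted p = 1.31e-05), and at chr17:86092322-86093123 (F strand) by -0.07 and -0.89 (adjusted p = 0.759 and 0.00602). The other 4 pairs differed in the same direction: ENSMUST00000165117 by 1.06 and 0.60, chr12:110842154-110883594 (F strand) by 0.87 and 0.34, chr11:51854060-51903278 (F strand) by 0.42 and 0.22, and chr10:81816994-81863610 (F strand) by -0.58 and -0.27.

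**Figure D5:**
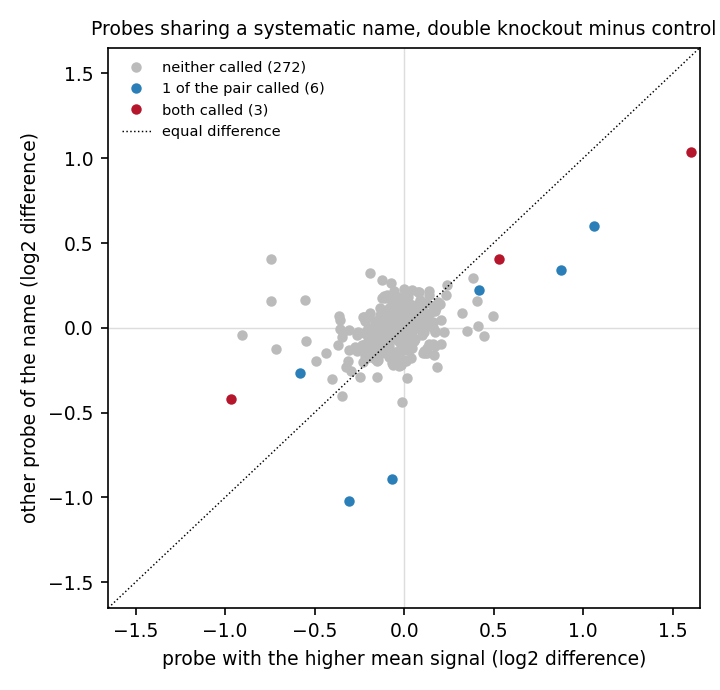
Double knockout minus control (log2) for 281 pairs of member probes with the same systematic name, the probe with the higher mean signal on the horizontal axis. The 3 pairs with both probes called (red) lie in 1 direction, and in 2 of the 6 pairs with 1 probe called (blue) the brighter probe lies near 0 and the other below it.

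Some called intervals lay close to each other. Here each interval name counted once, by its brightest probe. With a gap of at most 200 kb, a limit set after the values were seen, 4 of 30 called intervals had a called neighbour in the double knockout, 15 of 77 in Ezh1-het and 2 of 28 in Ezh2-KO. How many of all 2155 measured intervals lie that close to another was not computed, so these counts have no frame. Some neighbours overlap and are not separate regions, such as chr10:81816994-81863610 and chr10:81846505-81863606. On chromosome 12 the intervals chr12:110842154-110883594 and chr12:110894095-110899517, both F strand, rose in Ezh1-het (0.65 ± 0.19 and 0.56 ± 0.15) and in the double knockout (0.87 ± 0.19 and 0.76 ± 0.15; limma, adjusted p = 0.014 and 0.00886). The first read 0.03, -0.18, -0.24 and 0.34 in controls and 0.86, 1.22, 0.92 and 0.45 in the double knockout, and the second -0.05, -0.38, -0.05 and 0.12 against 0.86, 0.61, 0.73 and 0.48. Neither interval's double knockout arrays overlapped its controls. Ezh2-KO differed from control by 0.33 ± 0.19 and 0.25 ± 0.15 there, neither past the threshold, with Ezh2-KO 3 the highest array of its group in both.

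On chromosome 11 neighbouring intervals moved in opposite directions. The short intervals chr11:96173788-96174352 and chr11:96175764-96176029, both F strand, fell in Ezh2-KO by 0.73 ± 0.13 and 0.74 ± 0.15 and in Ezh1-het by 0.77 ± 0.13 and 0.87 ± 0.15. In the double knockout they fell by 0.51 ± 0.13 (limma, adjusted p = 0.0402) and differed by -0.54 ± 0.15 (adjusted p = 0.0604), with double knockout 2 at -0.04 and 0.02 and its other arrays between -0.54 and -0.39. The interval chr11:96111499-96126224 on the R strand rose in Ezh1-het by 0.47 ± 0.12 and in the double knockout by 0.65 ± 0.12 (limma, adjusted p = 0.038 and 0.00647), and differed by 0.07 ± 0.12 in Ezh2-KO. Double knockout exceeded Ezh2-KO there by 0.58 ± 0.12 (limma, adjusted p = 0.0438), and the F probe of that interval differed from control by -0.01 ± 0.09.

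On chromosome 4, chr4:88583425-88584070 (R strand) read -0.19, 0.09, 0.03 and 0.16 in controls, 0.18, 0.45, 0.82 and 1.14 in Ezh2-KO, 1.30, 0.79, 1.15 and 1.09 in Ezh1-het, and 0.95, 1.00, 1.05 and 0.45 in the double knockout. It was above background on 12 arrays and may have passed the detection filter only through the groups where it was higher. No test against control is therefore attached to it, and its place among the called neighbours in Ezh1-het is a description only. It differed from control by 1.06 ± 0.18 in Ezh1-het and by 0.84 ± 0.18 in the double knockout. The F interval that contains it, chr4:88542373-88589148, fell by 0.47 ± 0.12 in Ezh1-het (limma, adjusted p = 0.0284) and differed by -0.24 ± 0.12 in the double knockout (adjusted p = 0.351). The R probe of that longer interval was above background on 1 array only.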

How the data were processed

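RNA of 16 whole-kidney samples was hybridised to 2-colour Agilent arrays. Per the file headers, the deposited scanner files give spot intensity (median signal and local background of each channel) as read by Feature Extraction 10.7.3.1, which the submitters' processing notes name too. The authors' deposited log10 ratios (Cy5 over Cy3, scaled by the software) served as an alternative. The deposited value table matched them within 0.005, with column medians of 0, so its scale, centring and direction are those of the scanner files.

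Median signals were background-corrected by normexp (offset 50) and normalized by loess within each array. Control spots had weight 0, outlier-flagged spots were left out, and spots of a probe were averaged. Of 56605 probes, those with Cy5 signal well above background on 4 or more of 16 arrays (34731) were fitted with limma 3.58.1 (R 4.3.3, lmFit and eBayes, 2-sided) in 1 model of 4 groups of 4 arrays, with groups taken from the labels. P-values were adjusted by Benjamini-Hochberg over all of them, with a threshold of 0.05. The number of arrays limits the precision. The statistics were tested on simulated data.

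Named members were, per comparison, those called without overlap of arrays that had the largest differences in each direction (6 each, and 5 each for double knockout against Ezh2-KO). The 2 largest in each direction of each kind of name in the double knockout and the 3 most unlike strand pairs with a call were added. Up to 3 genes whose probes differed most were to be added where the member or its brightest RefSeq probe was called. Only Apcdd1 met that rule. A name counted once, by its brightest probe. The members and lists were chosen with earlier results of these data known. Alternatives were median centring, the deposited ratio, no background correction, other filters, array weights, a variance trend, 1 probe per name, slide or replicate as a block, each slide, only the groups compared, and arrays left out. Probe sequences and positions relative to genes were not analysed here.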

Additional observations from a re-analysis of the deposited data

Results flagged for a closer look

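Among the 53 members named, 14 of 211 groups of 4 arrays held an array that lay far from the other 3 by Dixon's test, where chance gives about 5%. In 5 of them that array was control 2. It read -0.39 at NAP000581-003 (nearest other control 0.06), 1.09 at the R strand of chr19:5798135-5800557 (nearest 0.12), 0.85 at ENSMUST00000121798 (nearest 0.42), 1.09 at ENSMUST00000145323 (nearest 0.30) and 1.34 at AF345951 (nearest 0.03). Control 3 stood out at ENSMUST00000140876 with 0.17 (nearest -0.27) and at the R strand of chr3:19179899-19216399 with 1.38 (nearest 0.17).

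Ezh2-KO 4 was the low array at ENSMUST00000129315, with -1.41 (nearest -0.82), and at ENSMUST00000131465, with -0.81 (nearest -0.11). Ezh2-KO 3 was low at BB189136, with -0.32 (nearest 0.09). In Ezh1-het, array 3 was high at ENSMUST00000121798, with 0.0329 (nearest -0.41), and array 2 was high at ENSMUST00000140876, with 0.87 (nearest 0.70), and at DV650784, with -0.17 (nearest -0.71). Double knockout 4 was high at NAP113319-1, with -2.28 (nearest -3.98).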

How the results depend on the processing

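Counts of called members moved by more than 1.5 times under these settings, and the cause was not tested unless fewer arrays or probes entered the fit. Median centring gave 2088, 2868 and 2530 for Ezh2-KO, Ezh1-het and double knockout, in place of 188, 490 and 203. With array weights they were 893 in Ezh1-het, 428 in the double knockout (62.6% of them higher) and 200 in double knockout against Ezh2-KO, against 58. With only the 2 groups fitted they were 28, 103 and 27 in Ezh2-KO, the double knockout and double knockout against Ezh2-KO. With only probes above background on all arrays they were 131 in the double knockout and 32 against Ezh2-KO. Slide 1 alone gave 24, 27, 44 and 18, slide 2 alone 2, 9, 24 and 2. Without controls 2 and 3, a setting chosen with earlier results known, they were 33, 65 and 114. Leaving out 1 array gave 72 to 269, 115 to 570, 102 to 240 and 21 to 49. Replicate numbers did not pair the samples, since same-numbered deviations correlated between -0.411 and 0.5. With the replicate block the counts were 225, 496, 202 and 52.

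Of 1431 values of named members under the alternatives 1169 kept direction and side of the threshold, 254 lost the call and 8 reversed. NAP097170-001 in the double knockout read 0.32 with median centring. The R strand of chr3:19179899-19216399 read 0.0397 without controls 2 and 3, and between -0.45 and 0.00041 with 1 array left out (the latter without control 3). The R strand of chr9:118291593-118324230 read 0.13 with the deposited ratio, 0.12 on slide 1, 0.0583 without controls 2 and 3, and between -0.0684 and 0.0400 with 1 array left out (above 0 without control 3 or double knockout 3). Neither R probe was called. All 66 results for named members were kept with 1 probe per name and with no background correction. Dim probes near background, such as NAP113319-1, CB196702 and ENSMUST00000124148, have only bounds in the dim group.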
